A study of Rattus norvegicus with 6 samples.

Results

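Of the 10 genes described here, 5 are used as markers of adventitial fibroblasts (Pi16, Dpp4, Scara5, Clec3b and Cd34) and 5 as markers of pericytes (Rgs5, Cspg4, Higd1b, Abcc9 and Mcam). They were taken by symbol from a table of 17833 genes, and all 10 were found there and passed the filter on low values with which 15150 genes were tested. The table holds bulk RNA-seq of pulmonary veins (PVs) from 3 rats whose veins were banded on both sides (bilateral banding, BPVB) and from 3 sham-operated rats. All 6 were wild type Sprague-Dawley rats operated on at postnatal day 1, and the PV draining the right upper lobe was taken at postnatal day 21. In the BPVB group a suture narrowed the veins of both sides to a fixed lumen. The sample labels name pulmonary vein banding, whereas the design text of the series abbreviates the operation as PAB, and the sample labels were followed. The sham group had its chest opened and its veins exposed as well, and only the narrowing was left out. The sex and litter of the rats are not given in the sources used here, and the p-values measure the spread between 3 rats of each group.

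The adventitia is the outer coat of a vessel. Its fibroblasts carry surface and secreted proteins such as Pi16, Dpp4 and Cd34, lie in cuffs around larger vessels and airways of the lung, and are described as a reserve from which other fibroblasts can form. Pericytes lie inside the basement membrane of capillaries and small venules, touch the endothelium, hold the wall together through signals such as platelet-derived growth factor and its receptor Pdgfrb, and adjust the calibre of the vessel. None of the 10 genes is strictly limited to its cell type. For example, Cd34 and Mcam are also made by endothelium, and Rgs5, Abcc9 and Mcam by smooth muscle. These examples are not a full list of the other sources.

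Library totals, recovered from the deposited values, were 26078189 to 29725808 fragments in the BPVB group and 23439506 to 23821184 in the sham group. Each member was read from 215 fragments or more in every library. The values are FPKM, fragments scaled by gene length and library total, and differences are on log2(FPKM + 0.5), BPVB minus sham, with limma and an adjusted p under 0.05 as the call. In bulk tissue a lower value can come from fewer cells of a type or from less RNA in each cell, and these cannot be told apart.

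The adventitial genes did not move as one. Scara5, Clec3b and Dpp4 rose in the BPVB group, Cd34 fell, and Pi16 did not pass the test. The pericyte genes moved less, with a fall of Rgs5, a smaller rise of Mcam, and no call for Cspg4, Higd1b or Abcc9. Of the 10 members 6 were called, where 31.5% of all tested genes were called. Of these, 4 were higher and 2 lower, beside 17.2% and 14.3% of all tested genes. The groups did not overlap for 7 members, against 45.6% of all tested genes. No member passed the study's additional threshold of an absolute log2 difference above 1, which 3.27% of the tested genes passed with the adjusted p. The median difference was 0.54 over the adventitial members and 0.05 over the pericyte members, where that of all tested genes was 0.02. The median absolute difference of the 10 members, 0.19, was close to the 0.18 of all tested genes.

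**Figure D1:**
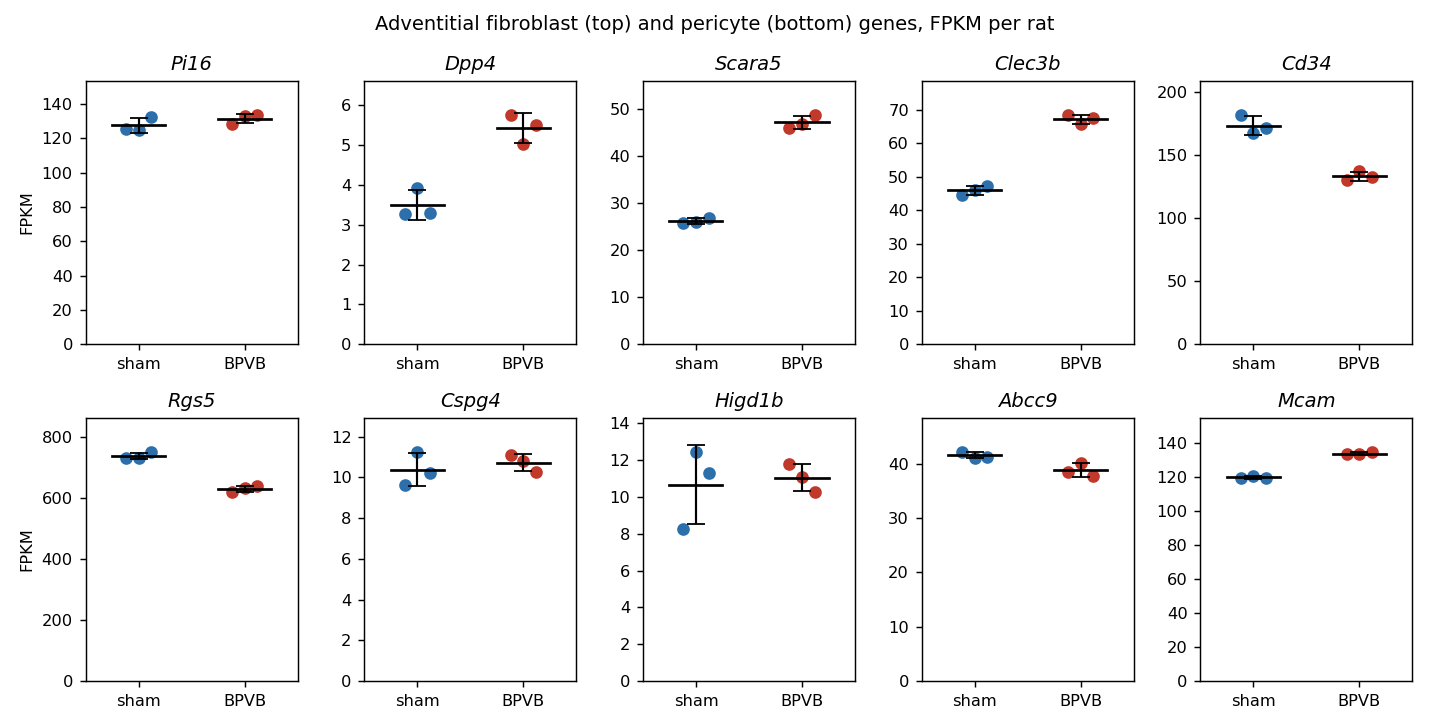
FPKM (vertical axes, from 0) of the 5 adventitial fibroblast genes (top row) and the 5 pericyte genes (bottom row) in each sham and each BPVB rat; points are rats, the long bar is the mean of 3 and the short bars are the SD. Scara5, Clec3b and Dpp4 sit higher and Cd34 and Rgs5 lower in every BPVB rat, while the points of Pi16, Cspg4 and Higd1b overlap between the groups.

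Promoter windows are shown for Dpp4, Cd34 and Rgs5, the member that rose and the members that fell for which a window was at hand. They come from RefSeq on the GRCr8 assembly and run from 250 bases before to 50 bases after the start of the gene, 5′ to 3′ on the gene's own strand. Windows were found for 6 of the 10 members (Pi16, Dpp4, Cd34, Rgs5, Cspg4 and Abcc9) and not for Scara5, Clec3b, Higd1b and Mcam. Capitals mark a GC box.
Dpp4, chr3:67452373-67452672, minus strand: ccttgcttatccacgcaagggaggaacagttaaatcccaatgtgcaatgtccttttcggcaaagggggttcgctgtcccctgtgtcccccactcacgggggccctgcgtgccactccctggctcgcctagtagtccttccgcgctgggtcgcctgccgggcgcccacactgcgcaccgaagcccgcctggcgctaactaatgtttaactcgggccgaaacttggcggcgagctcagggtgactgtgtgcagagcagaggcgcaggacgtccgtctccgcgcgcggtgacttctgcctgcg
Cd34, chr13:109008536-109008835, plus strand: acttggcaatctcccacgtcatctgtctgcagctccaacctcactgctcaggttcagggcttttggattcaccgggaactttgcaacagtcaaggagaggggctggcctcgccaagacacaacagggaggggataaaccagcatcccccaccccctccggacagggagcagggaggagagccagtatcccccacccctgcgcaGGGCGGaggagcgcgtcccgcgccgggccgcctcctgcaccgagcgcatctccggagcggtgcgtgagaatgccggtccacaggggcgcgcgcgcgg
Rgs5, chr13:84380827-84381126, plus strand: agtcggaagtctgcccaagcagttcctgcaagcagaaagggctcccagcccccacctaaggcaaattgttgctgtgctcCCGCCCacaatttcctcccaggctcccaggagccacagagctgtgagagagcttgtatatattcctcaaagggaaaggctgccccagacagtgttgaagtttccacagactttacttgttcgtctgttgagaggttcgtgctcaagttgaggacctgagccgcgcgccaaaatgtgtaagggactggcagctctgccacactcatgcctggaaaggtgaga
The motifs searched on both strands were the TATA box (TATAAA, in 14.2% of 33469 RefSeq promoter windows of the same length), the GC box (GGGCGG, 33.1%), the AP-1 site (TGANTCA, 7.33%), the RBPJ site (TGGGAA, 25.7%), the TEAD site (GGAATG, 14.2%), the RUNX site (TGTGGT, 17.3%) and the CArG box (1.64%). Of these, only the GC box was matched in the 6 windows. It lay 47 bases before the start of Cd34 and 171 bases before that of Rgs5, with further matches in Pi16, Cspg4 and Abcc9 and none in Dpp4. The Dpp4 window held 64.0% G and C bases, the Cd34 window 66.3% and the Rgs5 window 54.3%, against a median of 51.7% over all windows. A match describes letters in the window and not a bound site.

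Scara5, a class A scavenger receptor that takes up ferritin, rose most of the members. It was measured at 46.0, 46.8 and 48.7 FPKM in the BPVB rats and at 25.7, 26.0 and 26.8 FPKM in the sham rats. The lowest BPVB rat was well above the highest sham rat. The mean rose from 26.2 ± 0.566 to 47.2 ± 1.35 FPKM (SD, n = 3 each), 1.80 times as high. The log2 difference was 0.84 (SE 0.041, 95% interval 0.74 to 0.93, adjusted p = 1.3e-06), above that of 96.7% of all tested genes.

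Clec3b, which encodes the plasminogen-binding protein tetranectin, stood at 68.3, 65.8 and 67.5 FPKM in the BPVB rats and at 44.5, 45.9 and 47.3 FPKM in the sham rats. The groups were again apart, and rats of the same group differed little. The means were 67.2 ± 1.31 and 45.9 ± 1.39 FPKM, a log2 difference of 0.54 (SE 0.037, 95% interval 0.46 to 0.63, adjusted p = 9.4e-06).

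Dpp4, also known as CD26, is a membrane peptidase that clips the first residues from chemokines such as Cxcl12. It was the least abundant member, at 5.75, 5.02 and 5.50 FPKM in the BPVB rats and 3.26, 3.92 and 3.29 FPKM in the sham rats, from 377 to 795 fragments. Every BPVB rat was higher than every sham rat, with a wider spread than for Scara5 and Clec3b. The mean rose by 55.2%, with a log2 difference of 0.57 (SE 0.10, 95% interval 0.34 to 0.80, adjusted p = 0.0027).

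Pi16, a peptidase inhibitor of the CAP family and a gene widely used to name adventitial fibroblasts, did not pass the test. Its values of 128.3, 132.8 and 133.3 FPKM in the BPVB rats overlapped those of 125.5, 124.6 and 132.2 FPKM in the sham rats. The highest sham rat lay above the lowest BPVB rat. The log2 difference was 0.04 (SE 0.033, adjusted p = 0.35), and its 95% interval ran from -0.03 to 0.12, from at least 6956 fragments in each library.

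Cd34, a sialomucin of adventitial fibroblasts, endothelium and blood progenitors, went the other way. The BPVB rats had 129.7, 136.8 and 132.2 FPKM and the sham rats 181.2, 167.0 and 171.1 FPKM. The groups did not overlap. The mean fell from 173 ± 7.33 to 133 ± 3.59 FPKM, a change of -23.2% (log2 difference -0.38, SE 0.037, 95% interval -0.46 to -0.29, adjusted p = 8.9e-05).

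Cd34 is shared with endothelium, so the endothelial list is given beside it. Of 12 endothelial genes 7 were called lower and 0 higher, with a median difference of -0.15. Beside this count and those of the lists below, 17.2% of all tested genes were called higher and 14.3% lower. Emcn, a sialomucin of veins and capillaries, fell by 0.52 on the log2 scale and Cdh5, the junction cadherin, by 0.34. The summed FPKM of the list was 1464 to 1475 in the BPVB rats and 1633 to 1654 in the sham rats. The part of the endothelium in the fall of Cd34 was not tested.

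Among the pericyte genes, Rgs5 encodes an activator of the GTPase of Gi and Gq proteins and was the most abundant member. It measured 618.8, 631.8 and 638.1 FPKM in the BPVB rats and 731.5, 730.4 and 749.5 FPKM in the sham rats. All BPVB rats were below all sham rats. The mean fell from 737 ± 10.7 to 630 ± 9.83 FPKM, a change of -14.6% (log2 difference -0.23, SE 0.023, 95% interval -0.28 to -0.18, adjusted p = 9.6e-05).

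Mcam (CD146), an adhesion molecule of the immunoglobulin family that binds laminin with the chain Lama4 and pairs with Pdgfrb, had 133.6, 133.4 and 134.8 FPKM in the BPVB rats and 119.3, 120.9 and 119.5 FPKM in the sham rats. Rats of a group differed by little and the groups were apart. The mean was 11.7% higher in the BPVB group (log2 difference 0.16, SE 0.026, 95% interval 0.10 to 0.22, adjusted p = 0.0017). The rise of Mcam and the fall of Rgs5 were both small beside those of Scara5.

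Abcc9 encodes SUR2, the regulatory subunit that joins Kcnj8 or Kcnj11 in ATP-sensitive potassium channels. Its values were 38.5, 40.2 and 37.7 FPKM in the BPVB rats and 42.1, 41.1 and 41.3 FPKM in the sham rats. Although the groups did not overlap, the log2 difference of -0.10 (SE 0.040, 95% interval -0.19 to -0.01) had an adjusted p of 0.098 and was not called. It passed the threshold with median-of-ratios scaling (-0.12, adjusted p = 0.046) and with limma-voom on the recovered fragments (-0.10, adjusted p = 0.0083). The part of smooth muscle and of cardiomyocytes in this difference was not tested.

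Cspg4, the proteoglycan NG2 that spans the pericyte membrane, showed 11.1, 10.8 and 10.3 FPKM in the BPVB rats and 9.65, 11.2 and 10.2 FPKM in the sham rats. The highest single value was in a sham rat. The log2 difference was 0.05 (SE 0.073, 95% interval -0.12 to 0.21, adjusted p = 0.65).

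Higd1b, a mitochondrial protein of the hypoxia-inducible domain family, had 11.8, 11.1 and 10.3 FPKM in the BPVB rats and 8.27, 12.4 and 11.3 FPKM in the sham rats. Sham replicate 1 was low and the other 2 sham rats lay within or above the BPVB range. The coefficient of variation of the sham group was 20.2%, where counting of 215 to 319 fragments alone would give 6.02%. The log2 difference of 0.07 (SE 0.13, 95% interval -0.24 to 0.37, adjusted p = 0.75) turned to -0.10 without sham replicate 1, so no direction is given for this gene.

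**Figure D2:**
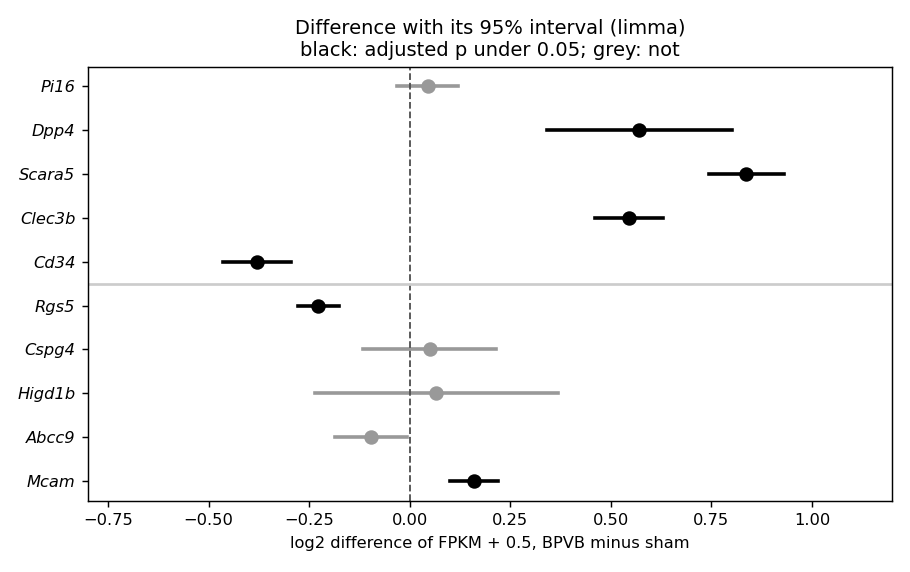
Log2 difference of FPKM + 0.5, BPVB minus sham, for each member (horizontal axis, log2 scale), with the 95% interval of limma; black marks an adjusted p under 0.05, grey marks the others, and the line between the rows separates the adventitial (top) from the pericyte genes (bottom). The estimates run from -0.38 for Cd34 to 0.84 for Scara5, and the interval of Higd1b is the widest.

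FPKM is a level per length and allows the members to be ranked within a group. In the sham group the order from high to low was Rgs5, Cd34, Pi16, Mcam, Clec3b, Abcc9, Scara5, Higd1b, Cspg4 and Dpp4, and of these neighbours only Higd1b and Cspg4 overlapped. In the BPVB group Mcam, Cd34 and Pi16 followed Rgs5 with means of 134, 133 and 131 FPKM, and each overlapped its neighbour. Scara5 stood below Abcc9 in the sham group and above it in the BPVB group. The FPKM of Rgs5 is scaled by its annotated length of 546 nucleotides, a whole multiple of 3, where the other members have 1094 to 8077. Its rank under another length was not tested.

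Within a library, a member can be set against a general gene of its lineage, which takes out the scaling of the library. Pdgfra, the receptor found on most fibroblasts, was itself higher in the BPVB group, at 21.6 ± 0.371 against 16.9 ± 0.327 FPKM (log2 difference 0.34, adjusted p = 5.7e-04). Relative to Pdgfra, Scara5 was higher by 0.49 and Clec3b by 0.20 on the log2 scale, and Pi16 (-0.30) and Cd34 (-0.72) were lower, each with no overlap between the groups. Dpp4 relative to Pdgfra differed by 0.23, and the groups overlapped (p = 0.2, two-sided exact permutation test). The p for the other 4 was 0.1, the smallest that an exact permutation test of 3 against 3 rats can give, so none could pass the threshold.

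Pdgfrb, the receptor through which pericytes are recruited, was higher in the BPVB group, at 63.2 ± 1.74 against 41.0 ± 1.00 FPKM (log2 difference 0.62, adjusted p = 4.9e-06). The part of cell types other than pericytes in that rise was not tested. Relative to Pdgfrb every pericyte member was lower: Rgs5 by -0.85, Abcc9 by -0.71, Cspg4 by -0.57, Higd1b by -0.55 and Mcam by -0.46 on the log2 scale, each without overlap and with p = 0.1 in the exact permutation test. The largest rise of a pericyte member was 0.16 (Mcam), so the rise of Pdgfrb itself sets all of these signs. These signs and sizes rest on the reference. Set against the median level of 8 general fibroblast genes in each library, Pi16 was higher by 0.26, but in 5 of 6 libraries that median lay between Dcn (-0.24) and Lum (-0.19), which both fell while the list's median difference was 0.25. Set against the mean log2 level of the same 8 genes, Pi16 was at -0.080, Scara5 at 0.71, Dpp4 at 0.45, Clec3b at 0.42 and Cd34 at -0.50, each without overlap.

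For the pericyte members, the median level of 10 smooth muscle genes lay between Cnn1 (-0.13) and Mylk (-0.16), which both fell, in all 6 libraries. Against it, Cspg4 (0.20), Abcc9 (0.052) and Mcam (0.31) were higher in the BPVB group, Rgs5 differed by -0.079, and the groups of Higd1b overlapped (0.21, p = 0.4, exact permutation test). Against the mean log2 level of the 10 genes, Rgs5 (-0.26) and Abcc9 (-0.13) were lower and Mcam (0.13) higher without overlap, and Cspg4 (0.019) and Higd1b (0.035) overlapped. Scara5, Dpp4 and Clec3b were higher and Cd34 and Rgs5 lower with each of the 3 references (Dpp4 with overlap against Pdgfra), and the directions of the other 5 depended on the reference. Lum, Cnn1 and Mylk were chosen after their values were seen.

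**Figure D3:**
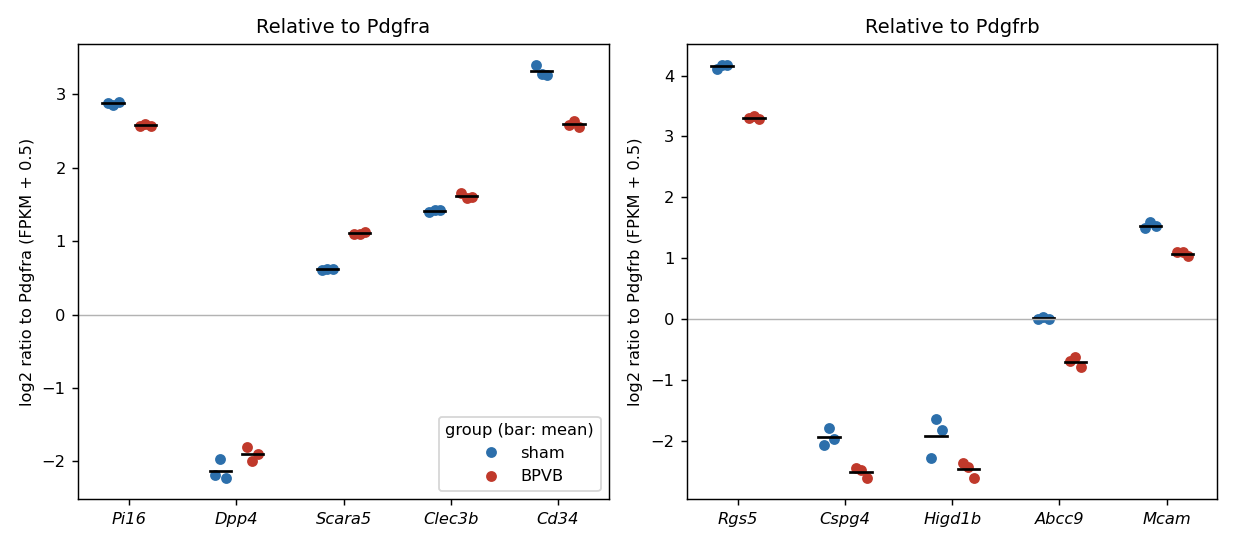
Log2 ratio of each adventitial member to Pdgfra (left) and of each pericyte member to Pdgfrb (right), both as FPKM + 0.5, in each sham and BPVB rat, with a bar for the mean of 3. The BPVB points of Scara5 and Clec3b lie above the sham points and those of Pi16 and Cd34 below, Dpp4 overlaps, and all pericyte members lie lower in the BPVB rats.

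The genes with which the members act moved in part. The chemokine Cxcl12, a substrate of Dpp4, was measured at 50.5, 49.4 and 50.1 FPKM in the BPVB rats and 32.9, 32.7 and 31.7 FPKM in the sham rats (log2 difference 0.62, adjusted p = 4.1e-06). It was chosen after its values were seen. Lama4, the laminin chain to which Mcam binds, fell by 0.33, and Tek, the endothelial angiopoietin receptor, by 0.13, a call that Tek kept only without sham replicate 3 when 1 library was left out (highest adjusted p = 0.12). The pore subunits of the channel with Abcc9 were not called, with differences of -0.08 for Kcnj8 (adjusted p = 0.42) and -0.14 for Kcnj11 (adjusted p = 0.055), both chosen after their values were seen. In all, 7 of the 17 partners and ligands were called higher and 3 lower, with a median difference of 0.04.

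Relatives of the members by gene family were called higher in 7 and lower in 7 of 23 tested, beside 17.2% and 14.3% of all tested genes. Msr1, another class A scavenger receptor and a macrophage gene, rose by 0.92, and Rgs1, a regulator of G protein signalling in lymphocytes, by 0.84. Rgs16, of the same family as Rgs5, fell by 0.67, and Abcc8, the sulfonylurea receptor SUR1, by 0.64. The median of the family list was -0.07. Marco was not in the table, and Dpp6 and Dpp10 were below the filter.

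Other genes of the adventitial fibroblast also went in both directions. Of 18, 5 were called higher and 7 lower, with a median of 0.03. Sfrp4, a secreted Wnt antagonist, rose by 1.27 from 0.966 ± 0.153 to 3.03 ± 0.161 FPKM, and Igfbp6, a binding protein for insulin-like growth factor, by 0.82 from 63.3 ± 3.06 to 112 ± 1.89 FPKM. Entpd2, an ectonucleotidase, fell by 0.85 from 24.2 ± 0.856 to 13.2 ± 0.532 FPKM, and the transcription factor Creb5 by 0.47. The call of Creb5 was lost without BPVB replicate 2 or 3 and without sham replicate 2 or 3 (highest adjusted p = 0.070). The summed FPKM of the 18 genes was 1585 to 1618 in the BPVB rats and 1483 to 1504 in the sham rats, and that of the 5 adventitial members 378 to 387 and 368 to 381.

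The other fibroblast lists are given because they can share the members. Of 10 alveolar fibroblast genes 8 were called higher and 0 lower (median 0.49). Among them, Inmt, a methyltransferase, rose by 2.85 and Gpc3, a glypican, by 1.34, and the summed FPKM of the list was 772 to 785 against 612 to 631. Of 8 general fibroblast genes 5 were higher and 3 lower (median 0.25, summed FPKM 6568 to 6618 against 5795 to 5842), with rises of the collagen genes Col1a2 (0.43) and Col1a1 (0.36) and falls of Dcn (-0.24) and Serpinf1 (-0.21). Of 8 myofibroblast genes 6 were higher and 1 lower (median 0.53, summed FPKM 272 to 282 against 177 to 181), with rises of Col12a1 (1.03) and Ltbp2 (0.88) and a fall of the matrix glycoprotein Tnc (-0.76). The part of each of these lists in the rises of Scara5, Clec3b and Dpp4 was not tested.

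Other pericyte genes went in both directions. Of 17 tested, 5 were called higher and 6 lower, with a median of -0.01, and Fam162b was not in the table. The count of 6 fell to 2 without BPVB replicate 2 and to 2 without sham replicate 1. Lamc3, a laminin chain, rose by 0.88 and Pdgfrb by 0.62, while Vtn, which encodes vitronectin, fell by 1.42 from 38.2 ± 1.29 to 14.1 ± 2.23 FPKM and Rgs4, a relative of Rgs5, by 0.56. The summed FPKM of the list was 409 to 413 in the BPVB rats and 412 to 431 in the sham rats. That of the 5 pericyte members, of which Rgs5 is the greater part, was 814 to 831 and 911 to 932.

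Smooth muscle, which shares Rgs5, Abcc9 and Mcam, showed 3 genes higher and 5 lower of 10, with a median of -0.10 and a summed FPKM of 4596 to 4647 against 4779 to 4848. Synpo2 (0.65) and Des (0.41) rose, and Myh11 (-0.30) and Acta2 (-0.18), both of the contractile apparatus, fell. The part of smooth muscle in the fall of Rgs5 was not tested.

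**Figure D4:**
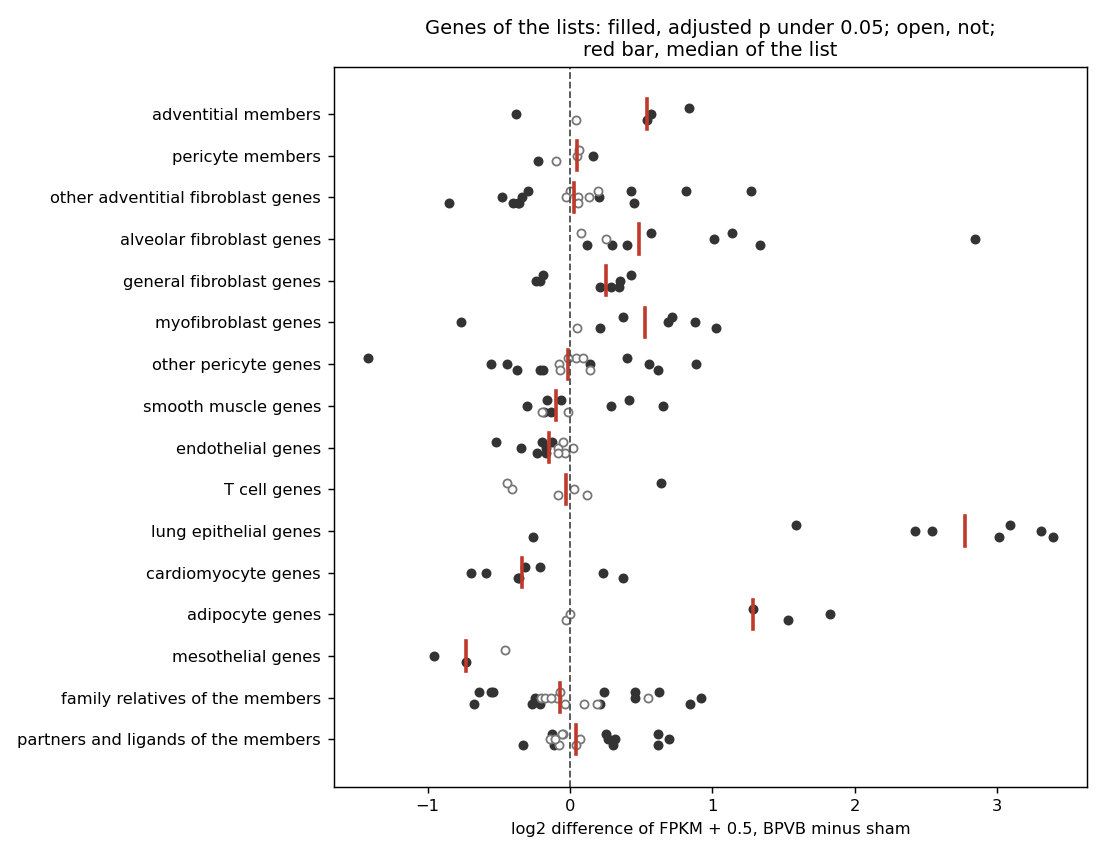
Log2 difference of FPKM + 0.5, BPVB minus sham (horizontal axis), of each tested gene of each list (rows); filled points had an adjusted p under 0.05, open points did not, and the red bar is the median of the list. The adventitial and pericyte lists spread to both sides of 0, the lung epithelial list lies far to the right with a median of 2.78 apart from Hopx.

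Genes of cell types outside the vessel wall also differed between the groups. Of 8 lung epithelial genes 7 were higher and 1 lower (median 2.78), with a summed FPKM of 627 to 684 in the BPVB rats and 131 to 135 in the sham rats. The surfactant genes Sftpc (3.40) and Sftpb (3.31) rose most, and Hopx fell by 0.26. Hopx was the greater part of the sham sum, at a mean of 70.9 FPKM in the sham and 59.3 FPKM in the BPVB group. Of 8 cardiomyocyte genes, which the muscle sleeve of rodent PVs expresses, 2 were higher (Ryr2, 0.38, and Nppa, 0.23) and 6 lower, led by Tnni3 (-0.69) and Myl7 (-0.59), of which Myl7 was not called with quantile normalization (adjusted p = 0.31). Their median was -0.34 and their summed FPKM 15488 to 15899 against 21295 to 21704, the largest of the lists.

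Adipocyte genes were higher in 3 of 5 (median 1.29), with Plin1 (1.83) and Adipoq (1.53), although their summed FPKM overlapped at 1304 to 1347 and 1303 to 1317. Nearly all of that sum was Fabp4, at a mean of 1297 FPKM in the BPVB and 1299 FPKM in the sham group, which was chosen after its values were seen. Of 5 mesothelial genes 3 were tested and 2 were lower, Upk3b (-0.96) and Msln (-0.73), and Wt1 and Calb2 were below the filter. Msln was not called without BPVB replicate 2 or 3 (highest adjusted p = 0.074). Their summed FPKM was 1.24 to 1.61 against 2.76 to 4.19, with a median of -0.73. Of 6 T cell genes 1 was higher (Il7r, 0.64) and 0 were lower by limma, with a median of -0.03 and a summed FPKM of 2.67 to 5.13 against 2.56 to 4.77. No listed gene in the table was at 0 in all libraries. Because FPKM are shares of a library, a shift in any of these cell types moves the share of all others, and their part in the members' differences was not tested.

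In the annotation deposited with the values, the term integral component of membrane was given to 6 of them (Dpp4, Cd34, Cspg4, Higd1b, Abcc9 and Mcam), cell surface to 4 (Dpp4, Scara5, Cd34 and Cspg4) and extracellular space to 3 (Pi16, Clec3b and Mcam). Of the 4 cell surface genes, Dpp4 and Scara5 rose, Cd34 fell and Cspg4 did not pass the test. Of the 3 in the extracellular space, Clec3b and Mcam rose and Pi16 did not pass the test.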

How the data were processed

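Bulk RNA-seq of PVs from 3 BPVB and 3 sham-operated rats was analysed, with groups and replicate numbers taken from the labels. By the study's methods, paired-end reads passed through fastp, HISAT and HTSeq-count, and the authors deposited the result as FPKM, with 1 column for each rat. The submitters' processing notes name HISAT2 2.0.5, StringTie 1.3.3b, featureCounts 1.5.0-p3 and DESeq2 1.20.0 instead, and the labels name the NEBNext Ultra kit where the methods name VAHTS Universal V6. The genome build, annotation and strand setting are not given in the sources used here, so reads of an antisense or overlapping gene cannot be told apart from those of a member. There were 0 unused columns of per-sample values.

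The deposited values held whole fragment ratios for 100.0% of genes (tolerance 1e-12), from which totals, gene lengths and fragments were recovered. On simulated data 97.5% of 2940 genes were recovered. FPKM as log2(FPKM + 0.5) were compared with limma 3.58.1 (eBayes with a trend) in R 4.3.3, two-sided, over 15150 genes with a mean of at least 0.1 FPKM, with Benjamini-Hochberg adjustment. Low genes are understated by the pseudocount. On data simulated for this comparison with 15150 genes, 87 of 100 genes changed 2-fold, 98 of 100 changed 4-fold and 9 unchanged genes were called. The changes were added to log2(FPKM + 0.5) with normal noise, and far fewer genes were changed than the 4775 called in the data. The largest difference of a member was 0.84, below 2-fold, so these rates do not cover the sizes seen for the members. Single ratios were compared by exact permutation tests. Other steps ran in Python 3.11.15 (pandas 2.3.3, scipy 1.17.1, matplotlib 3.10.9, numpy 2.4.6).

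The members and gene lists were chosen with earlier results of these data known. Of each list, up to 2 called rises and 2 called falls of the largest size are named, with Pdgfra and Pdgfrb. Some genes that this rule would name, and 1 list, are not reported here. Alternatives were pseudocounts of 1 and 0.1, no filter or a mean of at least 1 FPKM, median-of-ratios, TPM and quantile scaling, robust eBayes, the replicate number as a block, limma-voom on genes with at least 10 recovered fragments, list medians (and list means, chosen after seeing the data) as reference for ratios, and leaving out each library.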

Additional observations from a re-analysis of the deposited data

How the results depend on the processing

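The members called numbered 4 higher and 2 to 3 lower in all settings tried, and over all genes the calls ranged from 3925 to 5586 against 4775. Scaling moved the median difference of all genes to between -0.01 and 0.05. Higd1b turned from 0.07 to -0.10 without sham replicate 1, with a range of -0.10 to 0.18 over the 6 libraries left out in turn. Abcc9 passed the threshold with median-of-ratios scaling (-0.12, adjusted p = 0.046) and with limma-voom (-0.10, adjusted p = 0.0083). The number of other pericyte genes called lower was 2 to 5 with a library left out, against 6, and was 2 without BPVB replicate 2 and without sham replicate 1. With the list median in place of Pdgfra, the ratio differences were 0.26 for Pi16, 0.78 for Dpp4, 1.05 for Scara5, 0.76 for Clec3b and -0.17 for Cd34, so that Pi16 changed sign against a median that lay between Dcn and Lum in 5 of 6 libraries. With the smooth muscle median in place of Pdgfrb they were -0.079 for Rgs5, 0.20 for Cspg4, 0.21 for Higd1b, 0.052 for Abcc9 and 0.31 for Mcam, so that the last 4 changed sign. With the mean log2 level of these lists, a reference chosen after seeing the data, they were -0.080 for Pi16, 0.45 for Dpp4, 0.71 for Scara5, 0.42 for Clec3b, -0.50 for Cd34, -0.26 for Rgs5, 0.019 for Cspg4, 0.035 for Higd1b, -0.13 for Abcc9 and 0.13 for Mcam, so that Pi16 and Abcc9 kept the sign that they had against Pdgfra or Pdgfrb and Cspg4, Higd1b and Mcam did not. Of the T cell genes, 0 were called higher at a mean of at least 1 FPKM, and 1 was called lower with no filter, with quantile normalization and without sham replicate 3. Of the mesothelial genes, 1 was called lower at a mean of at least 1 FPKM and without BPVB replicate 3. Of 49 genes called and named as members, by the rule for lists or as Cxcl12, 4 lost the call in some setting: Tek, Creb5 and Msln with libraries left out, Tek also in 2 of the 10 other settings, and Myl7 with quantile normalization (adjusted p = 0.31). Apart from the changes of reference and scaling named here, the cause of these shifts was not tested.

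Same-numbered libraries of the 2 groups shared little beyond the number: their deviations from the group means correlated at 0.025, 0.014 and 0.015, each the best match for its library, so the numbers were not taken as pairs. With the replicate block, 4539 genes were called, and no member's call changed (Dpp4, adjusted p = 0.0097; Mcam, 0.0062; Abcc9, 0.14). Over 13453 genes, the median variance between libraries of a group was 3.16 (sham) and 3.77 (BPVB) times the mean count. For a gene at that median, depth alone does not set the error, and single genes can differ from it. Small differences such as those of Cspg4 and Higd1b were not detectable at this spread.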
